A study of Mus musculus with 8 samples.

Results

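The 10 genes described here encode G protein-coupled receptors that endocrine cells of the gut use to sense nutrients: Ffar1, Gpr120 and Gpr119 for lipids, Ffar2 and Ffar3 for short-chain fatty acids, Gpbar1 for bile acids, Casr and Gprc6a for calcium and amino acids, Tas1r3 for sugars and amino acids, and Gpr39 for zinc. They were found by symbol in the gene name column of the array files, where each had 1 probe in 1 spot, so that 10 of 55681 probes were theirs. Gpr120 is the name in the files of the gene now called Ffar4. At stage E18.5, RNA of mouse small intestine was measured on 4 arrays of wild-type mice (Rfx6+/+, labelled control) and 4 arrays of homozygous mutants (Rfx6-/-, labelled Rfx6 KO). Carriers of a floxed Rfx6 allele had been bred to CMV-Cre mice, and the resulting Rfx6+/- mice were intercrossed. The CMV promoter drives Cre in most tissues, so the mutation was inherited and was not limited to the gut or to endocrine cells. The labels do not say whether an array holds RNA of 1 embryo, and the tests take the spread between these arrays as their error.

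Enteroendocrine cells are scattered singly through the gut epithelium and release peptide hormones and serotonin after a meal. Many of their nutrient receptors act through G proteins that raise calcium or cyclic AMP in the cell, which leads to hormone release. Rfx6 is a transcription factor needed for endocrine cell differentiation in the pancreas and gut. Several of these receptors are also found outside endocrine cells, among them Ffar2 on leukocytes, Gpbar1 on macrophages and Tas1r3 on tuft cells. Whole tissue was measured, so fewer cells of a type and less RNA per cell cannot be told apart.

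At this stage 6 of the 10 receptor genes were detected: Ffar2, Ffar3, Gpr120, Gpbar1, Tas1r3 and Gpr39 were well above background on 8 of 8 arrays by the scanner software's flag. Casr and Gprc6a were well above background on 0 of 8 arrays. Ffar1 and Gpr119 were well above background on 1 and 2 arrays. None of the 6 detected genes passed the threshold between control and knockout (limma, adjusted p under 0.05 over 23276 genes). Their log2 differences, knockout minus control, ran from -0.64 for Gpr39 to 0.45 for Gpr120, in tissue where 8 of 10 peptide hormone genes were lower. Of all genes tested, 4.92% passed that threshold, 2.59% lower and 2.33% higher in the knockout. At an unadjusted p under 0.05 there were 4 of the 6 receptor genes (Ffar2, Ffar3, Gpbar1 and Tas1r3), where 20.5% of all genes tested were under it.

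**Figure D1:**
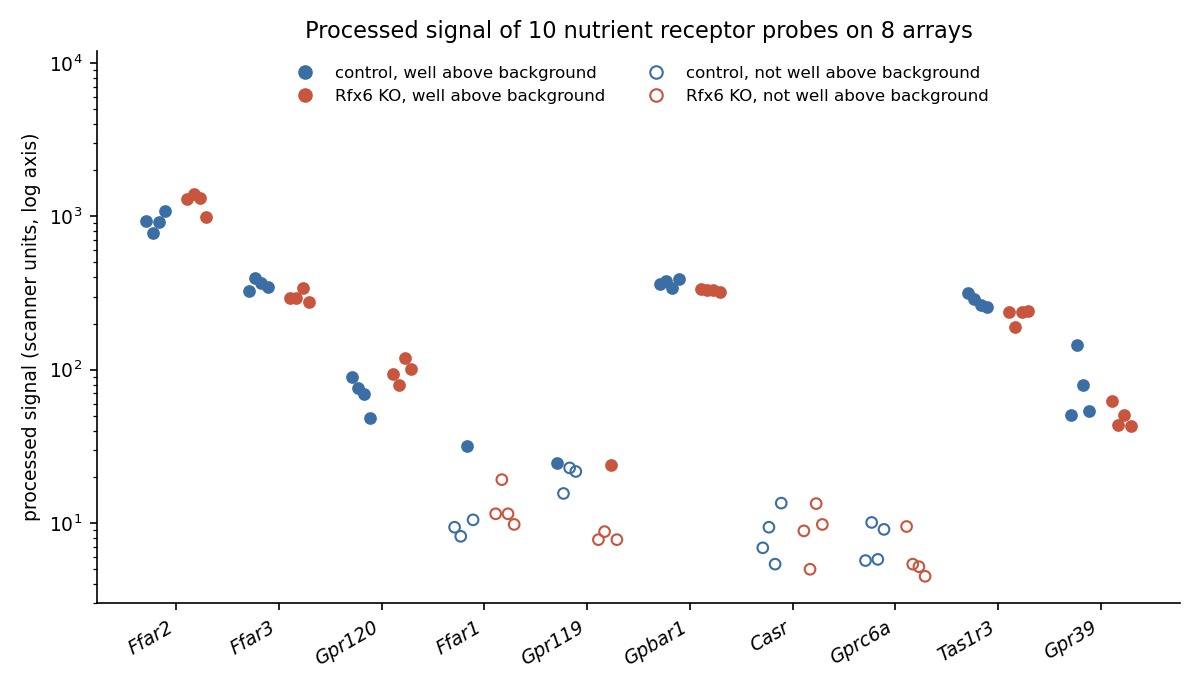
Processed signal of each of the 10 receptor probes on each of the 8 arrays, in scanner units on a log axis; every point is 1 array, filled where the probe was well above background and open where it was not. Casr and Gprc6a are open on all arrays, Ffar1 is filled on 1 array and Gpr119 on 2, and the other 6 genes are filled on all 8 arrays; heights of different probes cannot be compared.

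Values common to the whole series are brief. The arrays lay on 1 slide and were read in 1 scan; row 1 of the slide held 1 control and 3 knockout arrays, and row 2 held 3 control arrays and 1 knockout array. The 75th percentile of the processed signal, to which the levels are scaled, was 636 to 741 units. The lowest signal that counted as well above background on an array was 16.0 to 37.6 units. The probe of Rfx6 itself differed by 0.38 ± 0.29 (SE; limma adjusted p 0.503), so it does not bear on the genotype labels, and which part of the transcript was deleted was not settled here. All 10 enterocyte markers were detected in the fit. Epithelial genes of the stomach stood apart: 8 of 10 were higher in the knockout, and their summed level was 0.666 to 3.22 times the 75th percentile on control arrays and 374 to 702 times on knockout arrays, although all samples are labelled small intestine. The control sum includes genes that were not above background there.

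The receptors of short-chain fatty acids, Ffar2 and Ffar3, lie next to each other and to Ffar1 on chromosome 7. They are products of related genes, so the first 30 bases of the 60-base probes of Ffar2 and Ffar3 are given, with the whole probe of Ffar1, whose RefSeq model is 903 bases long. The letters are 5′ to 3′ and come from the array files, whose starting base is the number of bases that precede the probe.
Ffar2, minus strand, starting at base 1459 of its transcript: gggaccaagatggacaggggtggaagtcaa
Ffar3, minus strand, starting at base 605: tagagatggctgtggtccttttcatggtgc
Ffar1, minus strand, starting at base 706: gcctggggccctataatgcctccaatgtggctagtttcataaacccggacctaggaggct
The longest run of bases shared by any 2 of these whole probes was 6, so the probes read different sequences.

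Ffar2 (probe at chromosome 7, 31604149 to 31604208 on mm9, minus strand) binds acetate and propionate and is known in endocrine L cells and in neutrophils. Its processed signal was 936, 779, 913 and 1076 on control arrays 1 to 4 and 1305, 1388, 1321 and 985 on knockout arrays 1 to 4. After scaling, all 4 knockout arrays lay above all 4 control arrays, from 0.63 to 1.01 against 0.16 to 0.63 in log2 units, with knockout array 4 just above control array 4. The mean level was 0.45 ± 0.20 (SD, n = 4) in control and 0.84 ± 0.16 (SD, n = 4) in knockout. The difference of 0.39 with a standard error of 0.12 is a ratio of 1.31, with a 95% interval of 1.08 to 1.59. It did not pass the threshold (limma adjusted p 0.116; exact two-sided permutation p 0.0286, the smallest that 4 against 4 arrays allow). With array weights the adjusted p was 0.0486, which passes. Groups failed to overlap for 14.6% of all genes tested, 5.40% with the knockout higher, as for Ffar2, and 9.24% with it lower, as for Ffar3 and Gpbar1. Markers of leukocytes, which can carry Ffar2, were called in 0 of 10 cases (limma, adjusted p under 0.05); their summed level was 117 to 137 times the 75th percentile in control and 106 to 122 times in knockout. That sum is mostly Csf1r and Itgam, and single markers went both ways, from Cd68 at 0.54 (limma adjusted p 0.054) to Lyz2 at -0.49 (limma adjusted p 0.093); their part in the Ffar2 value was not tested.

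Ffar3 (probe at chromosome 7, 31640309 to 31640368 on mm9, minus strand) binds propionate and butyrate and is known in endocrine cells and in peripheral neurons. The processed signal was 327, 395, 368 and 346 on control arrays 1 to 4 and 294, 293, 342 and 278 on knockout arrays 1 to 4. Every scaled knockout value, -1.33 to -1.06, lay below every control value, -1.02 to -0.81. The mean level was -0.91 ± 0.11 (SD, n = 4) in control and -1.21 ± 0.11 (SD, n = 4) in knockout, a difference of -0.29 with a standard error of 0.09. This is 1.22-fold less, with a 95% interval of 1.06-fold to 1.41-fold less, and it did not pass (limma adjusted p 0.115; exact two-sided permutation p 0.0286). None of the 10 enteric neuron and glia markers was called (limma, adjusted p under 0.05), and their summed level was 10.7 to 13.6 in control and 12.7 to 14.4 in knockout; their part in the Ffar3 value was not tested. Ffar2 and Ffar3 thus moved apart in sign, although neither difference passed; the test of one gene's difference against the other's was not made.

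The third gene of the cluster, Ffar1 (probe at chromosome 7, 31645724 to 31645783 on mm9, minus strand), encodes a receptor of long-chain fatty acids known in pancreatic beta cells and in endocrine cells of the adult gut. Its signal was 9.4, 8.2, 31.8 and 10.5 on control arrays 1 to 4 and 11.5, 19.2, 11.5 and 9.8 on knockout arrays 1 to 4. It was well above background on control array 3 alone, where the lowest signal that counted as such was 21.3. By the software's weaker criterion, a signal significantly above background, it was present on 3 of 4 control and 4 of 4 knockout arrays. The groups overlap fully, and no fold is given because 7 of 8 values are near background.

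Gpr120 (chromosome 19, 38188370 to 38188429 on mm9, plus strand) is the other receptor of long-chain fatty acids and is known in endocrine cells, adipocytes and macrophages. Its signal was 89.5, 75.6, 69.3 and 48.7 on control arrays 1 to 4 and 93.7, 80.0, 119 and 101 on knockout arrays 1 to 4. Groups overlapped: 2 of 4 knockout arrays lay above all control arrays, and control array 4 was the lowest. The mean level was -3.29 ± 0.40 (SD, n = 4) in control and -2.83 ± 0.25 (SD, n = 4) in knockout. The difference of 0.45 with a standard error of 0.20 did not pass (limma adjusted p 0.252; exact two-sided permutation p 0.0857). As a ratio it was 1.37, with a 95% interval of 0.99 to 1.89. The value depended on single choices: without control array 4 it was 0.27, with the slide row as a block 0.27, in the series matrix values 0.27, and with normexp background correction 0.22.

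Gpr119 (chromosome X, 46021196 to 46021255 on mm9, minus strand) senses oleoylethanolamide and monoacylglycerols and, in adults, raises cyclic AMP in cells that make Gcg and Gip. It was read at the edge of detection. Its signal was 24.5, 15.6, 22.9 and 21.7 on control arrays 1 to 4 and 7.8, 8.8, 23.8 and 7.8 on knockout arrays 1 to 4. It was well above background on control array 1 and knockout array 3 only, and significantly above background on 4 of 4 control and 3 of 4 knockout arrays. The gene was therefore not tested, and no difference or fold is given because 6 of 8 values are not well above background.

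**Figure D2:**
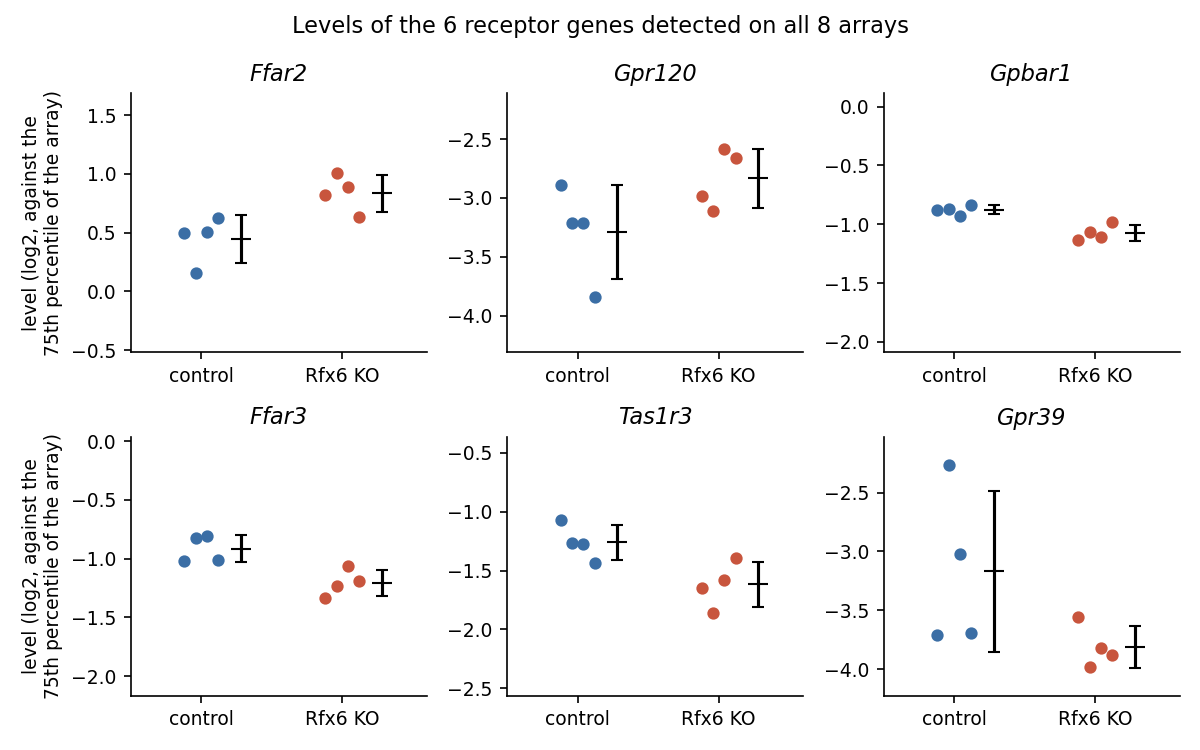
Scaled level (log2 against the 75th percentile of the array) of the 6 receptor genes detected on all 8 arrays; each point is 1 array, the horizontal mark is the group mean and the bar 1 SD (n = 4), and all panels span the same range of log2 units. Ffar2, Ffar3 and Gpbar1 have groups that do not overlap, and Gpr39 is spread widely in control because of 1 array at -2.26.

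Gpbar1 (chromosome 1, 74326104 to 74326163 on mm9, plus strand), also called TGR5, is the membrane receptor of bile acids. It is shown whole because its probe covers the end of the coding sequence: the RefSeq model is 990 bases long, the probe ends at its last base, and the capitals mark the stop codon.
Gpbar1: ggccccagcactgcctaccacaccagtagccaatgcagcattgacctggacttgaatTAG
The processed signal was 361, 381, 339 and 391 on control arrays 1 to 4 and 337, 330, 330 and 323 on knockout arrays 1 to 4. Scaled knockout values of -1.14 to -0.98 all lay below the control values of -0.93 to -0.84. The mean level was -0.88 ± 0.04 (SD, n = 4) in control and -1.07 ± 0.07 (SD, n = 4) in knockout, a difference of -0.19 ± 0.07 (SE) that did not pass (limma adjusted p 0.167; exact two-sided permutation p 0.0286). That is 1.14-fold less, with a 95% interval of 1.02-fold to 1.28-fold less, and the difference was -0.13 in the series matrix values. Gpbar1 was the steadiest of the 6 genes: its SD within groups was 0.06, lower than in all but 2.01% of genes tested, against a median of 0.17. Nr1h4, the nuclear receptor of bile acids, differed by -0.34 (limma adjusted p 0.089) and did not pass.

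Of the receptors of calcium and amino acids, neither was detected. Casr (chromosome 16, 36493783 to 36493842 on mm9, minus strand), the calcium-sensing receptor, gave 6.9, 9.4, 5.4 and 13.5 units on control arrays 1 to 4 and 8.9, 5.0, 13.4 and 9.8 on knockout arrays 1 to 4. Gprc6a (chromosome 10, 51334629 to 51334688 on mm9, minus strand), a receptor of basic amino acids, gave 5.7, 10.1, 5.8 and 9.1 on control arrays 1 to 4 and 9.5, 5.4, 5.2 and 4.5 on knockout arrays 1 to 4. The signals of both genes overlapped between groups and were not well above background, so they have no order and no fold. Gprc6a is the protein-coding neighbour of Rfx6 in the RefSeq gene table. The Gprc6a probe was not well above background in either genotype. By the weaker criterion, Casr was significantly above background on 2 of 4 control and 2 of 4 knockout arrays. Gprc6a met it on 0 of 4 control arrays and 1 of 4 knockout arrays.

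Tas1r3 (chromosome 4, 155234018 to 155234077 on mm9, minus strand) encodes the shared subunit of the sweet receptor, with Tas1r2, and of the umami receptor, with Tas1r1. The signal was 315, 291, 266 and 258 on control arrays 1 to 4 and 236, 190, 240 and 243 on knockout arrays 1 to 4. All knockout arrays were under the control mean, 3 of 4 were under every control array, and knockout array 4 reached the control range. The mean level was -1.26 ± 0.15 (SD, n = 4) in control and -1.62 ± 0.19 (SD, n = 4) in knockout. A difference of -0.36 with a standard error of 0.12 is 1.28-fold less, with a 95% interval of 1.06-fold to 1.54-fold less, and did not pass (limma adjusted p 0.133; exact two-sided permutation p 0.0571). Its partners were barely read: Tas1r1 was well above background on 3 of 8 arrays and Tas1r2 on 2, both of them control arrays. Of the tuft cell markers, which can carry Tas1r3, 0 of the 6 tested were called (limma, adjusted p under 0.05), and their sum was 5.03 to 7.25 in control and 5.49 to 7.50 in knockout. Pou2f3, a defining tuft cell factor, was well above background on 1 of 8 arrays.

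Gpr39 (chromosome 1, 127769282 to 127769341 on mm9, plus strand) encodes a receptor that zinc activates. Its signal was 50.6, 146, 79.4 and 53.9 on control arrays 1 to 4 and 62.8, 43.6, 50.5 and 43.2 on knockout arrays 1 to 4. Control array 2 was far above the rest and control arrays 1 and 4 lay in the knockout range. The mean level was -3.17 ± 0.69 (SD, n = 4) in control and -3.81 ± 0.18 (SD, n = 4) in knockout. The difference of -0.64 with a standard error of 0.30 had a 95% interval from 2.49-fold less to 1.03-fold more and did not pass (limma adjusted p 0.270; exact two-sided permutation p 0.114). Without control array 2 it was -0.34, with the slide row as a block -0.38, with normexp background correction -0.39 and in the series matrix values -0.27. Its SD within groups, 0.50, was above that of 95.5% of genes tested.

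Among the 6 tested genes, 4 differed by less than 0 and 2 by more, with a median of -0.24 against -0.05 for all genes tested. The 95% intervals set how large a fall in whole tissue, not in endocrine cells alone, the arrays could have missed in the processed signal. For Gpr39 it reached 2.49-fold, for Tas1r3 1.54-fold, for Ffar3 1.41-fold and for Gpbar1 1.28-fold, while those of Ffar2 and Gpr120 reached no fall beyond 1.01-fold. Slide position was partly tied to genotype. Within row 1 the differences ran from -0.54 to 0.34 and within row 2 from -0.57 to 0.44, and each gene kept its sign in both rows. Among the enterocyte markers 4 of 10, Fabp1, Apoa4, Lct and Slc2a2, were called lower (limma, adjusted p under 0.05). The sum of the list was 1278 to 1585 in control and 989 to 1206 in knockout, and is mostly Fabp1, Apoa4 and Lct. Markers that did not pass went both ways, from Sis at 0.42 (limma adjusted p 0.095) to Mttp at -0.41 (limma adjusted p 0.077). The part of the enterocyte markers in the receptor values was not tested. The part of the stomach epithelium markers given above was not tested either.

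**Figure D3:**
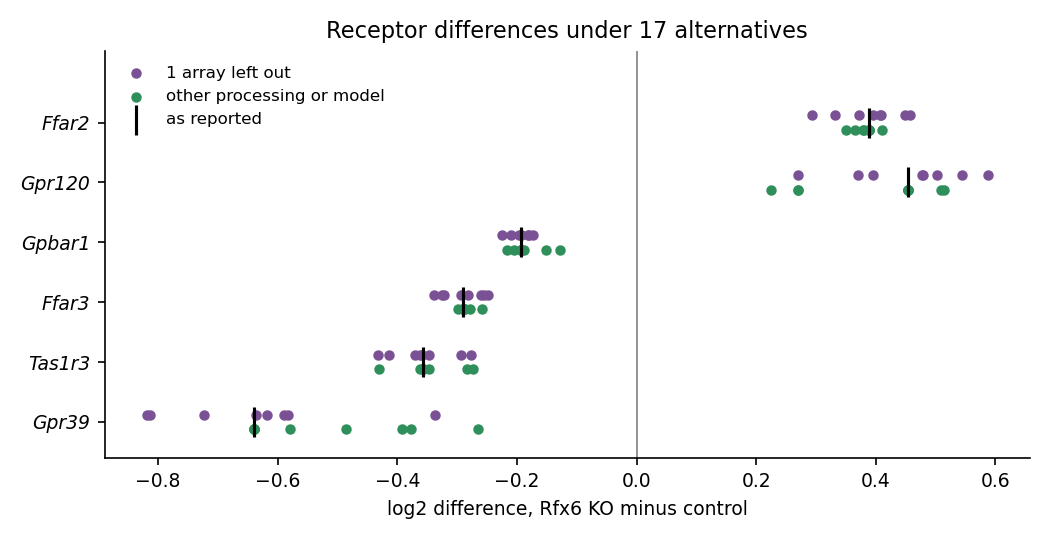
Log2 difference, knockout minus control, of each of the 6 tested receptor genes as reported (black mark) and under 17 alternatives, of which 8 leave out 1 array (upper points) and the rest change the processing or the model (lower points). Each gene keeps its sign under every alternative run, and Gpr39 and Gpr120 vary most.

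Gut peptide hormone genes differed far more. Of 10 hormone genes tested, 8 were lower (limma, adjusted p under 0.05) and none was higher, with a median log2 difference of -5.87. Ghrl, the hunger hormone, fell by 6.85 ± 0.09 (SE; limma adjusted p 3.0e-09), and Cck, which is released by fat and protein, fell by 5.16 ± 0.09 (SE; limma adjusted p 8.0e-09). In the processed signal, Gcg, the precursor of GLP-1, was at least 111-fold lower and Gip at least 172-fold lower. Only bounds are given because both were well above background on 0 of 4 knockout arrays. These bounds do not hold under other processing, where falls were smaller. The log2 difference of Gcg was -5.07 in the series matrix values, and that of Gip was -5.48 with normexp background correction. Nts, Sct, Insl5 and Sst were the other 4 that passed. Pyy differed by -2.65 and did not pass (limma adjusted p 0.127). Its knockout arrays were spread from -2.78 to 1.41, with a mean of -1.66 and an SD of 2.05. Its control arrays lay at 0.35 to 1.38. Gast differed by -0.16 and did not pass either (limma adjusted p 0.441). No interval of the 6 tested receptors reached a fall of the size seen for Ghrl or Cck. Of 13 tested general markers of endocrine cells, Scg2 and Syp were lower and 11 did not pass, with a median of -0.08. Chga, the common marker of endocrine granules, differed by 0.26 (limma adjusted p 0.561), and Tph1, the enzyme of serotonin synthesis, by 0.39 (limma adjusted p 0.132). Endocrine markers summed to 56.3 to 84.2 in control and 72.8 to 82.6 in knockout. That sum is mostly Chgb and Cpe, at mean log2 levels of 4.88 and 4.32 in control. Single markers that did not pass went both ways, from Tph1 at 0.39 to Isl1 at -0.86 (limma adjusted p 0.082).

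**Figure D4:**
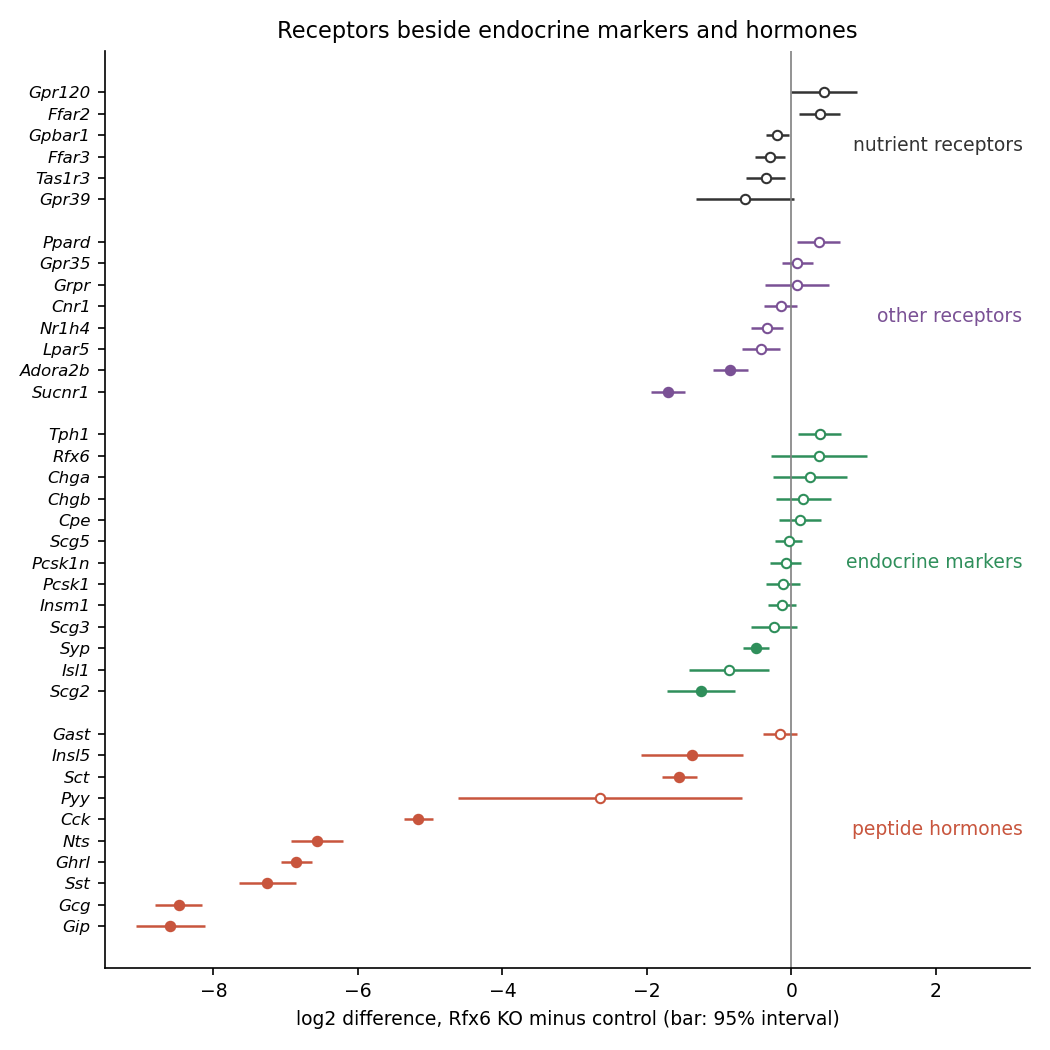
Log2 difference, knockout minus control, with its 95% interval, for the 6 tested nutrient receptors, 8 tested genes of the wider receptor list, 13 endocrine markers and 10 peptide hormones; filled points passed the threshold (limma, adjusted p under 0.05). The 6 nutrient receptors are all open and within 1 log2 unit of 0, while 8 hormones are filled; Gip and Gcg were well above background on 0 knockout arrays and Sst on 1, so their positions rest on background signal.

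The wider list of 14 receptors for metabolites and related ligands held 8 tested genes, of which 2 were lower and 6 did not pass, with a median of -0.24. The succinate receptor Sucnr1, a marker of tuft cells in adults, was at -1.91 to -1.62 on control arrays and -3.68 to -3.31 on knockout arrays. It fell by 1.71 ± 0.10 (SE; limma adjusted p 4.8e-05), and passed under all 17 alternatives, although the size was -1.11 with normexp background correction and -1.08 in the series matrix values. Adora2b, an adenosine receptor, fell by 0.84 ± 0.11 (SE; limma adjusted p 0.0030), also under all 17. Lpar5, a lysophospholipid receptor reported to sense peptones, differed by -0.43 (limma adjusted p 0.075). Oxgr1 was well above background on 0 of 8 arrays.

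Genes of receptor signalling and of nutrient transport were counted beside the 4.92% of all genes tested that passed. In taste-type transduction, 5 of 10 genes were tested and 0 passed by limma, adjusted p under 0.05: the channel Trpm5 differed by 0.03 and the phospholipase Plcb2 by -0.62 (limma adjusted p 0.142). Gnat3, the taste G protein gustducin, was well above background on 0 of 8 arrays. Among 19 tested G proteins, phospholipases, cyclases and arrestins, Gna11, a Gq-class subunit, fell by 0.42 (limma adjusted p 0.035) and Plcb1 rose by 0.51 (limma adjusted p 0.0185), and 17 did not pass; the call was lost under 10 of 17 alternatives for Gna11 and 7 for Plcb1. Without control array 2, Plcb1 differed by 0.29 (limma adjusted p 0.115). Gnaq differed by 0.03 and Gnas, the subunit that activates cyclases, by 0.01. Of 12 tested transporters and channels, the glucose transporter Slc2a2 fell by 0.68 (limma adjusted p 0.0147) and the fatty acid binding protein Fabp2 by 0.42 (limma adjusted p 0.048), calls lost under 4 and 11 of 17 alternatives. Slc5a1, the sodium-glucose cotransporter that triggers hormone release in adult cells, differed by -0.34 (limma adjusted p 0.193).

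Promoters were searched because the mutated factor belongs to a family that binds the X-box, an inverted repeat of a short core. RefSeq sequences of the 250 bases before the start of each gene (GRCm38.p6) were matched for 10 of the 10 receptor genes, on both strands. The 10 genes have 13 promoters between them. The core GTTGCC, or GGCAAC on the other strand, was in promoters of 2 of the genes, Gpr120 and Gpbar1. It was in 10.4% of all 32851 promoters, which is a share per promoter and not per gene. The full X-box was in 0 of them and in 0.667% of all promoters. Stretches with the matches in capitals are given for both genes, which differed in opposite directions and did not pass.
Gpr120, chr19:38096928-38097009, plus strand: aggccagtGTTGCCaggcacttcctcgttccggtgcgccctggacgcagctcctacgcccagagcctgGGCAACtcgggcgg
Gpbar1, chr1:74278410-74278439, plus strand: tttttttaagttGGCAACtgaaaaaaatct
A match describes letters in this window and does not show a binding site. Each window ends at the start of the gene model. The Gpbar1 model ends at the stop codon, so it may lack untranslated sequence at its start too. Its window may therefore not lie at a transcription start. The receptor genes that passed the threshold would have been compared with the genes of most similar pattern, and there were none.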

How the data were processed

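Total RNA was labelled with cyanine 3 from 100 ng by the authors, per the labels' protocols. The scanner files were made with Agilent Feature Extraction 10.10.1.1, per the submitters' processing notes, on an mm9 grid, per the file headers. Their processed signal is a deposited intensity, background-subtracted by that software and not scaled between arrays, per the file headers. The deposited series matrix holds an intensity per spot; its columns had Spearman correlations of 1.00 with the spot medians and nearly equal medians of 143 to 144, as after quantile normalization.

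Of 62976 spots, 3671 control spots were left out, and spots marked as outliers were set aside. The log2 processed signal was centred per array on its 75th percentile. Testing required the scanner's well-above-background flag throughout at least 1 group; each gene was read by its brightest probe. The two-sided test was limma's (version 3.58.1, lmFit then eBayes, under R 4.3.3); its p-values were adjusted by Benjamini and Hochberg's method over 23276 genes, with 0.05 as threshold. Exact permutation tests used the 70 splits of the arrays. For arrays it is their number that limits precision. Intervals are not adjusted for the number of genes. Bounds ("at least") set a dim probe at the lowest signal well above background. Summed levels are linear, in units of the 75th percentile.

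The members and lists were chosen with earlier results of these data known. The rule names all receptor genes, Rfx6, and list genes past the threshold or not detected; list genes outside it that are named were chosen after their values were seen, and for lists given only as background the counts stand in for the names. Lists for pancreas and for smooth muscle and mesenchyme were also counted: 3 of 8 tested pancreas genes were lower and 0 of 10 muscle and mesenchyme genes were called (limma). Of the lists, 2 genes are not reported here and were left out of the list counts. Alternatives were normexp background correction (offset 50), quantile normalization, the series matrix, no filter, detection on all 8 arrays, averaging each gene's probes, the slide row or replicate number as a block, array weights, and leaving out each array. Same-numbered samples did not deviate together, with correlations of -0.07, -0.17, 0.07 and -0.41, and are not taken as pairs.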

Additional observations from a re-analysis of the deposited data

Results flagged for a closer look

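The check took 55 groups of 4 detected values, from the 6 tested receptor genes and 26 of the list genes past the threshold. List genes that did not pass, Pyy among them, were not checked in this way. Of the 55 groups, 2 had 1 array far from the other 3, where chance gives about 1 in 20, or 2.75. No receptor gene was among them. Both values were low on control array 2: Sst stood at 1.75 against 1.98 to 2.03 on the other control arrays, and Slc2a2 at 2.59 against 2.86 to 2.90.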

How the results depend on the processing

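The 6 tested receptor genes kept their sign under all 17 alternatives, and all but 1 of the resulting values stayed short of the threshold. The exception was array weights, where the count of receptor genes higher in the knockout went from 0 to 1, with Ffar2 at 0.35 (limma adjusted p 0.0486); over its other alternatives Ffar2 had adjusted p of 0.082 to 0.318. The cause was not tested. At an unadjusted p under 0.05 there were 4 receptor genes. Leaving out 1 array gave 0 lower and 0 higher receptor genes each time. Differences ran from 0.22 to 0.59 for Gpr120, -0.34 to -0.25 for Ffar3, -0.23 to -0.13 for Gpbar1, -0.43 to -0.27 for Tas1r3 and -0.82 to -0.27 for Gpr39. With the replicate number as a block, Ffar2 stayed at 0.39 (limma adjusted p 0.318); the numbers do not pair the samples, and the block lowered the calls over all genes from 602 to 148 lower and from 543 to 268 higher.

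Calls over all genes were 203 lower and 298 higher without the filter and 1173 lower with array weights, and were fewest among the fits without 1 array when knockout array 1 was left out, at 217 lower and 335 higher. With detection required on all 8 arrays, called hormone genes went from 8 to 5 and stomach genes from 8 to 1, because genes not detected in 1 group drop out. Called endocrine markers went from 2 to 0 with the replicate block (limma), where the numbers do not pair the samples, the wider receptor list from 2 to 4 with array weights, and enterocyte markers from 4 to between 1 and 5. Signal over background limits what can be said of Ffar1, Gpr119, Casr and Gprc6a.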
